A study of Mus musculus with 28 samples.

Results

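The genes described here encode the mitochondrial carriers of the solute carrier family SLC25 in mouse liver. They were chosen by name, as every gene symbol of the form Slc25a followed by a number, leaving out Slc25a13, Slc25a15 and Slc25a20, plus the uncoupling protein genes Ucp2 and Ucp3. The rule found 46 genes among the 23393 gene symbols of the 2 count tables. RNA was sequenced from the livers of 28 mice of strain 129svj aged 11 to 13 months, 7 in each of 4 groups. HZ WY mice were SIRT6 heterozygotes (HZ) and were gavaged with WY-14643 (WY), a synthetic agonist of the nuclear receptor PPARα, at 50 mg/kg in 0.5% carboxymethylcellulose (CMC). WT WY mice were wild type and received the same dose. HZ vehicle and WT vehicle mice received the 0.5% CMC alone, and all livers were taken 12 h after the gavage. The labels used here state neither the sex of the mice nor the way the Sirt6 allele was made.

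SLC25 carriers are small proteins, nearly all of the inner mitochondrial membrane, that exchange a solute of the matrix for a solute of the cytosol. They link the respiratory chain, fatty acid oxidation, the urea cycle, and the synthesis of lipids and glucose to the rest of the hepatocyte, because the inner membrane lets few of the metabolites involved cross unaided. PPARα is the receptor through which fasting and fibrate-like drugs raise the genes of fatty acid oxidation in liver, and SIRT6 is a nuclear deacetylase of chromatin that has been tied to metabolic gene expression.

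Sirt6 itself, which checks the genotype labels, was between 1.29 and 2.29 CPM (reads of a gene scaled to the size of its library) in HZ WY livers, against 2.27 to 4.18 CPM in WT WY livers. HZ vehicle livers had 0.881 to 1.38 CPM, against 1.91 to 3.52 CPM in WT vehicle livers. The fitted log2 fold change of HZ over WT was -1.04 under WY (adjusted p = 0.00721) and -0.97 under vehicle (adjusted p = 0.00696), by edgeR's quasi-likelihood test with Benjamini-Hochberg adjustment over the 12607 genes tested, the test behind every adjusted p below. Gene counts summed to 15795201 to 20020078 per library, and CPM here use library totals scaled by the trimmed mean of M values (TMM). Summed CPM of 8 hepatocyte markers lay between 42456 and 106820 in the 28 livers, whereas 4 markers of skeletal muscle summed to at most 0.142 CPM and 4 markers of fat to at most 0.603 CPM. On the second principal component of log2 CPM, which held 9.77% of the variance, 5 HZ libraries were outlying, from WY animals 14, 15 and 21 and vehicle animals 30 and 38. WY animals carry the numbers 2 to 25 and are held in one count table, whereas vehicle animals carry 29 to 39 and 71 to 78 and are held in the other, so the treatment and any difference between the tables cannot be told apart. Nothing in the labels places the animals of a group in separate litters, so p-values measure the spread between these livers.

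The promoters of 4 carriers are shown first, because Slc25a30, Slc25a42, Slc25a34 and Slc25a25 had the largest log2 fold changes under WY of any tested carrier in either genotype. Each line holds the 250 bases before a RefSeq transcription start in build GRCm38.p6, on the gene's strand, which is the minus strand for all 4 genes. Slc25a25 has 3 annotated starts, and the window shown was picked because it alone of the 3 holds the TGACGTCA motif described below.
Slc25a30 chr14:75787038-75787287: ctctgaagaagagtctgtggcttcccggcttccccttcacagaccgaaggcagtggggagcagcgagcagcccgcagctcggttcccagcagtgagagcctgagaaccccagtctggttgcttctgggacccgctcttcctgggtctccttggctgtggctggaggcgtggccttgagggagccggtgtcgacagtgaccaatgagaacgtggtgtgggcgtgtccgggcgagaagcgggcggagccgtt
Slc25a42 chr8:70212282-70212531: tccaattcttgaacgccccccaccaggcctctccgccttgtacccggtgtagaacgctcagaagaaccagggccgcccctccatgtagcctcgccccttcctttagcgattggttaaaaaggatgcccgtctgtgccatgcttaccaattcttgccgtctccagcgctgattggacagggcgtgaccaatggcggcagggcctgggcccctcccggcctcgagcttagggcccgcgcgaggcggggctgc
Slc25a34 chr4:141623835-141624084: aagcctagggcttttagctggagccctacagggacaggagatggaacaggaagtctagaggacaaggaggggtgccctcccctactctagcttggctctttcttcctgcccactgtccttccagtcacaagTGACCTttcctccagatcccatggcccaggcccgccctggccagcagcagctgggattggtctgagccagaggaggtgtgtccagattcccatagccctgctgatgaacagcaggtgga
Slc25a25 chr2:32424067-32424316: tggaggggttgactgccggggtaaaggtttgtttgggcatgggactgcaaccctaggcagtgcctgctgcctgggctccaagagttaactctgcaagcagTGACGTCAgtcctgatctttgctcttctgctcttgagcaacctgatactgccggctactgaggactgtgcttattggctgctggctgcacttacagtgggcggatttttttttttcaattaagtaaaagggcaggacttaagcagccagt
Capitals mark AGGTCA, the half-site bound by many nuclear receptors, read here on the other strand, in the Slc25a34 window, where it begins at position -119 from the start. In the Slc25a25 window they mark TGACGTCA, the palindrome known as the cyclic AMP response element, which begins at position -150. The Slc25a30 and Slc25a42 windows hold no AGGTCA. Both motifs were searched on both strands of windows that also held the 50 bases after the start. AGGTCA was present in 16.3% of all 32851 promoter windows, and in 5 of the 44 windows found for 35 carriers, those of Slc25a34, Slc25a39, Slc25a45, Slc25a47 and Ucp3. TGACGTCA was present in 1.79% of all windows and in 2 of the 44, those of Slc25a25 and Slc25a36. The DR1 repeat was present in 0.381% of all windows and in 0 of the 44. The letters describe these windows only, and no binding was measured here.

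Carrier transcripts spanned a wide range of levels in these livers, with 40 of the 46 high enough to be tested. Compared per length, as CPM per kb of exon averaged over all 28 livers, Slc25a47, a carrier gene expressed mainly in liver, was highest at 223. Slc25a39, needed for glutathione uptake into mitochondria, followed at 166. The citrate carrier gene Slc25a1, which supplies cytosolic citrate for lipid synthesis, had 120.5 CPM per kb and the adenine nucleotide translocase gene Slc25a5 had 114 CPM per kb. Then came the dicarboxylate carrier gene Slc25a10 at 69.0 and the phosphate carrier gene Slc25a3 at 68.6 CPM per kb. In all, 14 carriers averaged at least 20 CPM per kb.

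Genes for the same substrate were often far apart in level. Among the translocases that exchange ADP for ATP, Slc25a4, the isoform of heart and muscle, had 2.40 CPM per kb and the testis isoform Slc25a31 had 0.292 CPM per kb, against 114 CPM per kb for Slc25a5. Of the mitochondrial glutamate carriers, Slc25a22 had 43.7 CPM per kb and Slc25a18 had 0.0878 CPM per kb. Among the calcium-regulated carriers of ATP-Mg and phosphate, Slc25a23 and Slc25a25 had 46.3 and 24.6 CPM per kb, whereas Slc25a24 had 0.690 and Slc25a41 had 0.0102 CPM per kb. Unequal levels were also seen between carrier genes that lie side by side in the genome. Slc25a47 and Slc25a29, a carrier of basic amino acids with 0.692 CPM per kb, lie 162 bp apart on opposite strands of chromosome 12. Slc25a23 and Slc25a41 lie 2056 bp apart on chromosome 17. The Slc25a5 values carry an uncertainty, since the annotation names 1 pseudogene copy of this gene. Reads aligned to both places are in no gene's count, which can lower its level. Only pseudogenes named after a carrier were looked for.

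**Figure D1:**
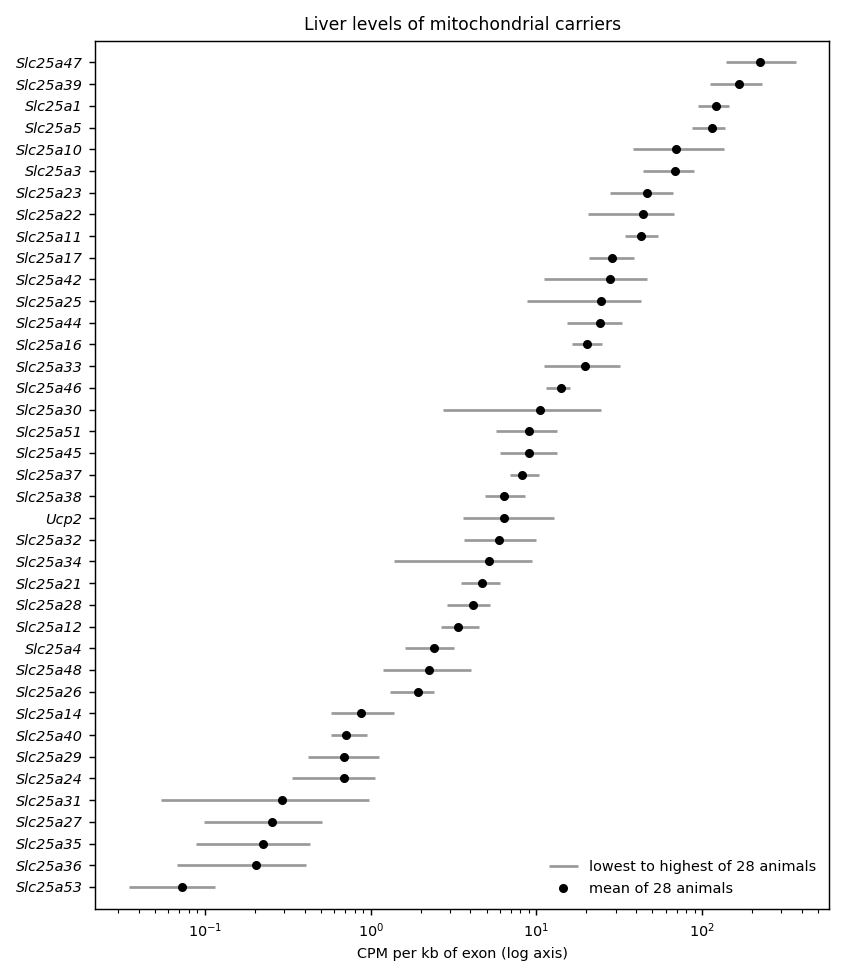
Levels of tested carriers in CPM per kb of exon on a log axis, with points at the mean and bars from the lowest to the highest of the 28 livers. Slc25a47 averages 223 and Slc25a53 averages 0.0727 CPM per kb, and Slc25a31, with 2 to 39 reads per library, has a wide bar.

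A mean under 1 CPM was found for 10 carriers, Slc25a2, Slc25a18, Slc25a27, Slc25a31, Slc25a35, Slc25a41, Slc25a43, Slc25a53, Slc25a54 and Ucp3. Slc25a27 averaged 0.998 CPM, and with unscaled library totals it was above 1, which left 9. Of the 10, Slc25a27, Slc25a31, Slc25a35 and Slc25a53 passed the filter on low counts, with means of 0.579 to 0.998 CPM, and none of these passed the test in any of the 5 comparisons. The other 6 were not tested. Slc25a2, an ornithine carrier gene, had 2 to 7 reads per library, and Slc25a18 had 0 to 8. Slc25a43 had 0 to 6 reads per library, Slc25a41 had 7 reads in all 28 libraries together and Slc25a54 had 1.

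Within groups, the coefficient of variation of a tested carrier had a median of 17.7% in HZ WY, 13.2% in WT WY, 16.1% in HZ vehicle and 15.1% in WT vehicle livers. Slc25a31, at a few reads per library, varied most in every group, between 52.0% and 102%.

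WY-14643 was given to ask how the liver transcriptome answers PPARα activation in each genotype. Most carriers changed in both genotypes, about as often as genes at large, and more of them rose than fell. In HZ livers 25 of the 40 tested carriers passed the test, 18 higher and 7 lower under WY, and in WT livers 24 did, 18 higher and 6 lower. The same test called 55.7% of all genes in HZ and 54.1% in WT, so the total is near the background. By direction, 29.3% of all genes were called higher and 26.4% lower in HZ, and 27.4% higher and 26.7% lower in WT. By edgeR, 17 carriers were called higher in both genotypes and 5 lower in both, and 0 were called in opposite directions. Of all genes, 44.2% were called in the same direction in both. The median log2 fold change was 0.12 over the tested carriers in HZ and 0.13 in WT, against 0.01 and -0.02 over all genes. The HZ median of the carriers depended on the setting, at 0.07 without the 5 outlying HZ libraries, 0.04 with voom, 0.05 with a trend on exon length removed and 0.25 over genes of at least 5 CPM. In WT it was 0.26 over genes of at least 5 CPM. In whole liver, fewer cells of a type and less RNA per cell cannot be told apart. Of the 8 hepatocyte markers, 6 fell in HZ and 5 in WT livers under WY, and the part of this in the carrier results was not tested.

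Summed over all 46 genes, carrier transcripts made up 4391 ± 313 CPM in HZ WY livers and 4432 ± 275 CPM in WT WY livers, against 3299 ± 221 CPM in HZ vehicle and 3570 ± 200 CPM in WT vehicle livers (SD, n = 7 each). The lowest WY liver of each genotype, at 4190 CPM in HZ and 4109 CPM in WT, was above the highest vehicle liver, at 3518 CPM in HZ and 3896 CPM in WT. Leaving out the 5 outlying HZ libraries gave 25 called carriers in each genotype.

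**Figure D2:**
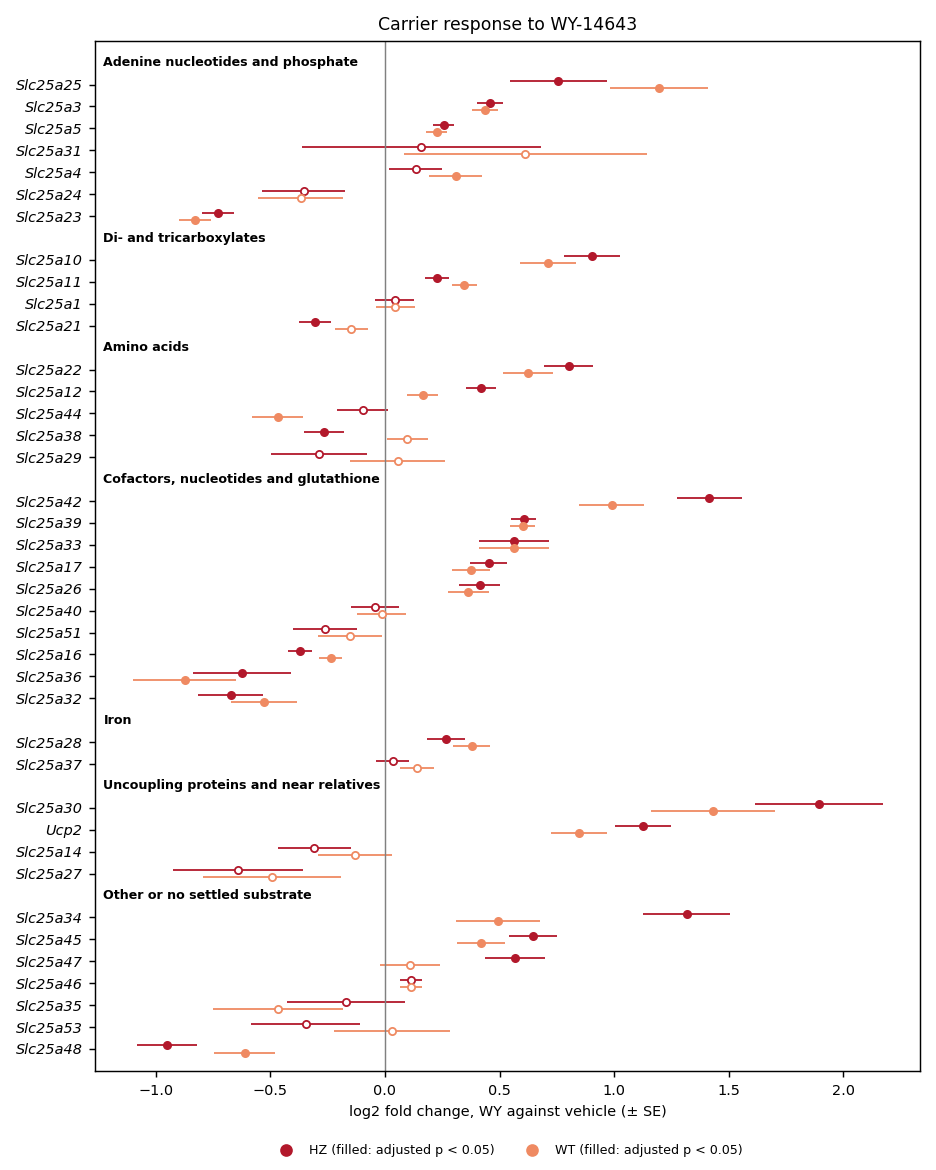
Log2 fold change of WY over vehicle with its standard error for the tested carriers shown, by substrate, HZ above WT in each row, filled where adjusted p was below 0.05. Slc25a30 lies farthest to the right in both genotypes, at 1.89 in HZ and 1.43 in WT, and Slc25a23, Slc25a48, Slc25a36 and Slc25a32 lie to the left of -0.5 in both.

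The 12 textbook PPARα targets listed to check the treatment, among them Cyp4a10 and Pdk4, included 11 that rose in HZ and 10 that rose in WT, with 0 that fell. Their median log2 fold change was 1.77 in HZ and 0.95 in WT. Among the tested carriers, values above 1 on the log2 scale were those of Slc25a30, Slc25a42, Slc25a34 and Ucp2 in HZ, and of Slc25a30 and Slc25a25 in WT.

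Slc25a30, a close relative of the uncoupling proteins, rose most. It had 46.5, 65.9 and 85.1 CPM as the lowest, median and highest of HZ WY livers, against 12.5, 16.6 and 24.8 CPM in HZ vehicle livers. With WY, WT livers had 45.4, 81.4 and 112 CPM, against 12.9, 34.6 and 51.7 CPM in WT vehicle livers. The HZ groups did not overlap, whereas in WT the highest vehicle liver was above the lowest WY liver. The log2 fold change was 1.89 ± 0.28, adjusted p = 2.81e-06 in HZ, and 1.43 ± 0.27, adjusted p = 8.44e-05 in WT. With a score of clock genes as a covariate, the HZ value was 1.20, adjusted p = 0.000753. Ucp2, an uncoupling protein gene found in many tissues, had 49.7, 67.4 and 89.7 CPM in HZ WY livers, against 25.7, 28 and 41 CPM in HZ vehicle livers. In WT WY livers it had 39.6, 51.2 and 67.3 CPM, against 25.3, 28.8 and 31.1 CPM in WT vehicle livers. Neither pair of groups overlapped, and the log2 fold change was 1.13 ± 0.12, adjusted p = 1.37e-08 in HZ, and 0.85 ± 0.12, adjusted p = 1.68e-06 in WT. In the liver Ucp2 is known to be transcribed in Kupffer cells as well as hepatocytes. Of 12 Kupffer cell and macrophage markers, 0 rose under WY in either genotype, 0 fell in HZ and 1 fell in WT. The part of these cells in the rise of Ucp2 was not tested. The other tested relatives, Slc25a14 and Slc25a27, did not pass, with log2 fold changes of -0.31 and -0.64 in HZ, and -0.13 and -0.49 in WT.

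Ucp3, best known from skeletal muscle and brown fat, was nearly silent without the drug. It had 20 reads over the 7 HZ WY libraries, against 0 over the 7 HZ vehicle libraries, and 49 reads over the 7 WT WY libraries, against 3 in 2 of the 7 WT vehicle libraries. Every WY library of both genotypes held at least 1 read. Scaled by library totals, the WT ratio was 16.9 (95% exact interval 5.46 to 84.9), and HZ WY was at least 4.92-fold higher by the exact 95% lower limit. Against a floor of 3 counts over the HZ vehicle group, the HZ ratio was 6.64. Interval and floor cover counting error only. Ucp3 did not pass the filter on low counts, and without that filter its adjusted p was 0.000317 in HZ and 3.72e-05 in WT. Levels stayed low, at 0.0569 to 0.245 CPM in HZ WY livers and 0.119 to 0.848 CPM in WT WY livers. Muscle markers summed to at most 0.142 CPM and fat markers to at most 0.603 CPM, both within the range of Ucp3 itself. The part of these tissues in the Ucp3 reads was not tested.

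Among the 11 carriers of cofactors, nucleotides other than ATP, and glutathione, all tested, 5 rose and 3 fell in each genotype. Slc25a42, which brings coenzyme A into the matrix in exchange for adenine nucleotides, rose most of these. Its levels were 171, 196 and 279 CPM in HZ WY livers, against 66.7, 77.6 and 114 CPM in HZ vehicle livers. They were 216, 238 and 274 CPM in WT WY livers, against 85.7, 132 and 151 CPM in WT vehicle livers. All WY livers were above all vehicle livers of their genotype, with a log2 fold change of 1.42 ± 0.14, adjusted p = 4.27e-09 in HZ, and 0.99 ± 0.14, adjusted p = 1.36e-06 in WT. Slc25a39 likewise did not overlap between WY and vehicle, with 483, 541 and 598 CPM in HZ WY livers, against 305, 349 and 371 CPM in HZ vehicle livers. Livers of WT WY mice had 533, 566 and 628 CPM of it, against 357, 381 and 404 CPM in WT vehicle livers. Its log2 fold change was 0.61 ± 0.05, adjusted p = 4.26e-10 in HZ, and 0.60 ± 0.05, adjusted p = 6.83e-10 in WT. Slc25a40, its paralogue for the same substrate, had a log2 fold change of -0.04 in HZ and -0.01 in WT and did not pass.

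Slc25a33, a pyrimidine nucleotide carrier gene, averaged 42.4 ± 9.5 CPM in HZ WY livers and 45.3 ± 7.41 CPM in WT WY livers, against 28.7 ± 5.85 CPM in HZ vehicle and 30.7 ± 7.52 CPM in WT vehicle livers (SD, n = 7 each). The groups overlapped in both genotypes, and the log2 fold change was 0.56 ± 0.15, adjusted p = 0.0027 in HZ, and 0.56 ± 0.15, adjusted p = 0.00289 in WT. Slc25a36, a second gene for pyrimidine nucleotide transport, went the other way, with 1.73 ± 0.590 CPM in HZ WY and 1.21 ± 0.459 CPM in WT WY livers, against 2.66 ± 0.700 CPM in HZ vehicle and 2.24 ± 0.426 CPM in WT vehicle livers. It rests on 11 to 82 reads per library, the groups overlapped, and the log2 fold change was -0.62 ± 0.21, adjusted p = 0.0139 in HZ, and -0.87 ± 0.23, adjusted p = 0.0017 in WT. Slc25a32, which carries folate into mitochondria, averaged 27.5 ± 6.25 CPM in HZ WY and 30.1 ± 4.82 CPM in WT WY livers, against 43.9 ± 5.52 CPM in HZ vehicle and 43.4 ± 11.1 CPM in WT vehicle livers. Again the groups overlapped, with a log2 fold change of -0.67 ± 0.14, adjusted p = 0.000233 in HZ, and -0.53 ± 0.14, adjusted p = 0.0027 in WT. With the clock score as a covariate, the HZ calls of these 3 genes were lost, at adjusted p = 0.0841 for Slc25a33, 0.136 for Slc25a36 and 0.0508 for Slc25a32. The same covariate lowered the share of all genes called in HZ from 55.7% to 38.5%, so such losses were not particular to these genes. The score differed between the groups, from -4.87 to 0.04 in HZ WY livers and from -3.14 to 3.39 in WT WY livers, against -0.88 to 2.71 in HZ vehicle and -3.20 to 4.15 in WT vehicle livers.

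Of the remaining cofactor carriers, Slc25a17, a carrier of the peroxisomal membrane for coenzyme A and related cofactors, rose by 0.45 in HZ and 0.38 in WT on the log2 scale. Slc25a26, which imports S-adenosylmethionine, rose by 0.41 in HZ and 0.36 in WT. Slc25a16 had a log2 fold change of -0.37 in HZ and -0.24 in WT, both called lower, and its WY and vehicle livers did not overlap. Slc25a51, for NAD, did not pass in either genotype, with -0.26 in HZ and -0.15 in WT.

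In the group that moves adenine nucleotides and phosphate, 3 of 7 tested genes rose and 1 fell in HZ, and 4 rose and 1 fell in WT. Slc25a25 rose most, with 166, 258 and 313 CPM in HZ WY livers, against 98.9, 155 and 186 CPM in HZ vehicle livers. WT WY livers had 144, 272 and 335 CPM, against 68.9, 93.7 and 207 CPM in WT vehicle livers. Both pairs of groups overlapped, and the log2 fold change was 0.76 ± 0.21, adjusted p = 0.00375 in HZ, and 1.20 ± 0.21, adjusted p = 3.94e-05 in WT. Slc25a23, of the same calcium-regulated type, fell, with 159, 190.4 and 213 CPM in HZ WY livers, against 277, 308 and 349.9 CPM in HZ vehicle livers. In WT WY livers it had 146, 175 and 195 CPM, against 264, 312 and 334 CPM in WT vehicle livers. Its log2 fold change was -0.73 ± 0.07, adjusted p = 1.14e-09 in HZ, and -0.83 ± 0.07, adjusted p = 2.32e-10 in WT, with no overlap between WY and vehicle in either genotype. The third such gene tested, Slc25a24, had -0.35 in HZ and -0.37 in WT and did not pass.

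The phosphate carrier gene Slc25a3, which feeds phosphate to ATP synthase, had 390.0, 419.6 and 442 CPM in HZ WY livers, against 244, 311 and 339.6 CPM in HZ vehicle livers. With WY, WT livers had 438, 453 and 493 CPM, against 318, 328 and 369.9 CPM in WT vehicle livers. No vehicle liver reached the lowest WY liver of its genotype, and the log2 fold change was 0.46 ± 0.06, adjusted p = 9.42e-08 in HZ, and 0.44 ± 0.06, adjusted p = 2.52e-07 in WT. Slc25a5 did not overlap either but moved less, with 188 to 207 CPM in HZ WY livers, against 142 to 172 CPM in HZ vehicle livers. It had 204 to 227 CPM in WT WY livers, against 165 to 194 CPM in WT vehicle livers. The log2 fold change of Slc25a5 was 0.26 ± 0.05, adjusted p = 4.42e-05 in HZ, and 0.23 ± 0.05, adjusted p = 0.000219 in WT. Slc25a4 passed in WT only, with a log2 fold change of 0.13 ± 0.12, adjusted p = 0.338 in HZ, and 0.31 ± 0.12, adjusted p = 0.0265 in WT, and the difference between genotypes did not pass its own test (adjusted p = 0.75). Its WT call was lost without WT vehicle animal 32, WT WY animal 24 or WT WY animal 6, at adjusted p = 0.0669, 0.0628 and 0.0714. With a trend on exon length removed, Slc25a5 and Slc25a4 no longer passed in WT, at log2 fold changes of 0.03 and 0.18 (adjusted p = 0.592 and 0.214).

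Of the 4 carriers of di- and tricarboxylates, 2 rose in each genotype, and 1 fell in HZ. Slc25a10, which exchanges malate or succinate for phosphate, had 246, 257 and 466 CPM in HZ WY livers, against 133, 165 and 189.7 CPM in HZ vehicle livers. Livers of WT WY mice had 237, 285 and 366 CPM, against 163, 178 and 208 CPM in WT vehicle livers. WY and vehicle livers did not overlap in either genotype, with a log2 fold change of 0.90 ± 0.12, adjusted p = 5.1e-07 in HZ, and 0.71 ± 0.12, adjusted p = 1.87e-05 in WT. Slc25a11, the oxoglutarate carrier gene of the malate-aspartate shuttle, had 0.23 ± 0.05, adjusted p = 0.000692 in HZ, and 0.35 ± 0.05, adjusted p = 3.67e-06 in WT. With the length trend removed, its HZ call was lost (log2 fold change 0.10, adjusted p = 0.0653). Slc25a1 averaged 266 ± 34.8 CPM in HZ WY and 264 ± 36.1 CPM in WT WY livers, against 258 ± 20.5 CPM in HZ vehicle and 255 ± 24.0 CPM in WT vehicle livers (SD, n = 7 each). Its log2 fold change of 0.04 ± 0.09 in HZ and 0.05 ± 0.09 in WT was within its standard error of 0. Slc25a21, a carrier of oxoadipate and related acids, had -0.30 ± 0.07, adjusted p = 0.000534 in HZ, and -0.15 ± 0.07, adjusted p = 0.0792 in WT.

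Amino acid carriers were tested for 5 genes, of which 2 rose and 1 fell in each genotype. Slc25a22 rose most, with 287, 322 and 403 CPM in HZ WY livers, against 123, 178 and 238 CPM in HZ vehicle livers. WT WY livers had 293, 309.7 and 367 CPM, against 172, 217 and 234 CPM in WT vehicle livers. WY and vehicle livers did not overlap, and the log2 fold change was 0.80 ± 0.11, adjusted p = 3.8e-07 in HZ, and 0.62 ± 0.11, adjusted p = 1.72e-05 in WT. Slc25a12, an aspartate-glutamate exchanger gene, also rose in both, by 0.42 in HZ and 0.17 in WT (adjusted p = 5.22e-06 and 0.0391). Its WT call was lost without any 1 of WT vehicle animals 74, 29, 37 or 31, or of WT WY animals 10, 11, 25 or 6, at adjusted p between 0.0542 and 0.098. Testing genes of any count also lost it (adjusted p = 0.0545).

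The amino acid carrier called lower was Slc25a38 in HZ and Slc25a44 in WT. Slc25a44, which imports branched-chain amino acids, had 69.5 to 118 CPM in HZ WY livers, against 69.5 to 105 CPM in HZ vehicle livers. With WY, WT livers had 54.3 to 90.5 CPM, against 86.4 to 117 CPM in WT vehicle livers. The groups overlapped, and the log2 fold change was -0.10 ± 0.11, adjusted p = 0.472 in HZ, and -0.47 ± 0.11, adjusted p = 0.000696 in WT. Slc25a38, the glycine carrier gene used in haem synthesis, had 13.5 to 18.9 CPM in HZ WY livers, against 16.0 to 21.3 CPM in HZ vehicle livers. In WT WY livers it had 17.6 to 20.2 CPM, against 14.8 to 23.6 CPM in WT vehicle livers. The log2 fold change of Slc25a38 was -0.27 ± 0.09, adjusted p = 0.0122 in HZ, and 0.10 ± 0.09, adjusted p = 0.364 in WT. With voom it was called in opposite directions, at -0.31, adjusted p = 0.00234 in HZ, and 0.17, adjusted p = 0.0452 in WT. The difference between genotypes did not pass with voom (adjusted p = 0.065). Its HZ call was lost with the clock score as a covariate (-0.11, adjusted p = 0.429), where 38.5% of all genes were called in HZ, against 55.7% without it. The test of the difference between genotypes gave adjusted p = 0.48 for Slc25a44 and 0.408 for Slc25a38. Slc25a29 did not pass in either genotype, at -0.29 in HZ and 0.06 in WT.

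Both iron carriers of the inner membrane were tested. Slc25a28 rose, with a log2 fold change of 0.27 ± 0.08, adjusted p = 0.00666 in HZ, and 0.38 ± 0.08, adjusted p = 0.000275 in WT, and Slc25a37, the form best known from developing red cells, did not pass, with 0.03 in HZ and 0.14 in WT.

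Of the 7 tested carriers with other or unsettled substrates, 3 rose and 1 fell in HZ, and 2 rose and 1 fell in WT. Slc25a34 had 13.9, 17.3 and 25.2 CPM in HZ WY livers, against 3.70, 7.40 and 10.6 CPM in HZ vehicle livers. Livers of WT WY mice had 14.2, 17.7 and 20.9 CPM, against 7.98, 13.6 and 17.2 CPM in WT vehicle livers. HZ WY and HZ vehicle livers did not overlap, whereas the WT groups did, with a log2 fold change of 1.32 ± 0.19, adjusted p = 1.33e-06 in HZ, and 0.49 ± 0.18, adjusted p = 0.0245 in WT. The WT call was lost without WT vehicle animal 37, 31 or 32 or WT WY animal 24, at adjusted p = 0.0503, 0.0602, 0.0602 and 0.0525, and with the length trend removed (0.38, adjusted p = 0.0853). Slc25a45 averaged 30.8 ± 5.28 CPM in HZ WY and 27.9 ± 2.38 CPM in WT WY livers, against 19.7 ± 2.31 CPM in HZ vehicle and 20.8 ± 3.55 CPM in WT vehicle livers, and had a log2 fold change of 0.65 ± 0.10, adjusted p = 6.4e-06 in HZ, and 0.42 ± 0.11, adjusted p = 0.0013 in WT.

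Slc25a47, the most abundant of all the carriers, had 621, 772 and 1096 CPM in HZ WY livers, against 413, 557 and 639 CPM in HZ vehicle livers. WT WY livers had 594, 679.6 and 816 CPM, against 463, 614 and 828 CPM in WT vehicle livers. The groups overlapped in both genotypes. Its log2 fold change was 0.57 ± 0.13, adjusted p = 0.000512 in HZ, and 0.11 ± 0.13, adjusted p = 0.502 in WT, and the test of the difference between genotypes gave adjusted p = 0.456. Slc25a48, whose substrate is not settled, fell to 4.01, 5.39 and 7.17 CPM in HZ WY livers, against 8.27, 9.73 and 13.6 CPM in HZ vehicle livers. With WY, WT livers had 4.37, 5.49 and 8.06 CPM, against 7.05, 8.57 and 10.7 CPM in WT vehicle livers. The HZ groups did not overlap and the WT groups did, with a log2 fold change of -0.95 ± 0.13, adjusted p = 5.41e-07 in HZ, and -0.61 ± 0.13, adjusted p = 0.000272 in WT. Slc25a46, an outer membrane protein of mitochondrial shape, had 0.11 in both genotypes and did not pass (adjusted p = 0.0509 in HZ and 0.0528 in WT).

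Counted over all tested carriers, WY and vehicle livers did not overlap for 13 in HZ and 11 in WT, where this held for 22.5% and 27.7% of all genes.

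**Figure D3:**
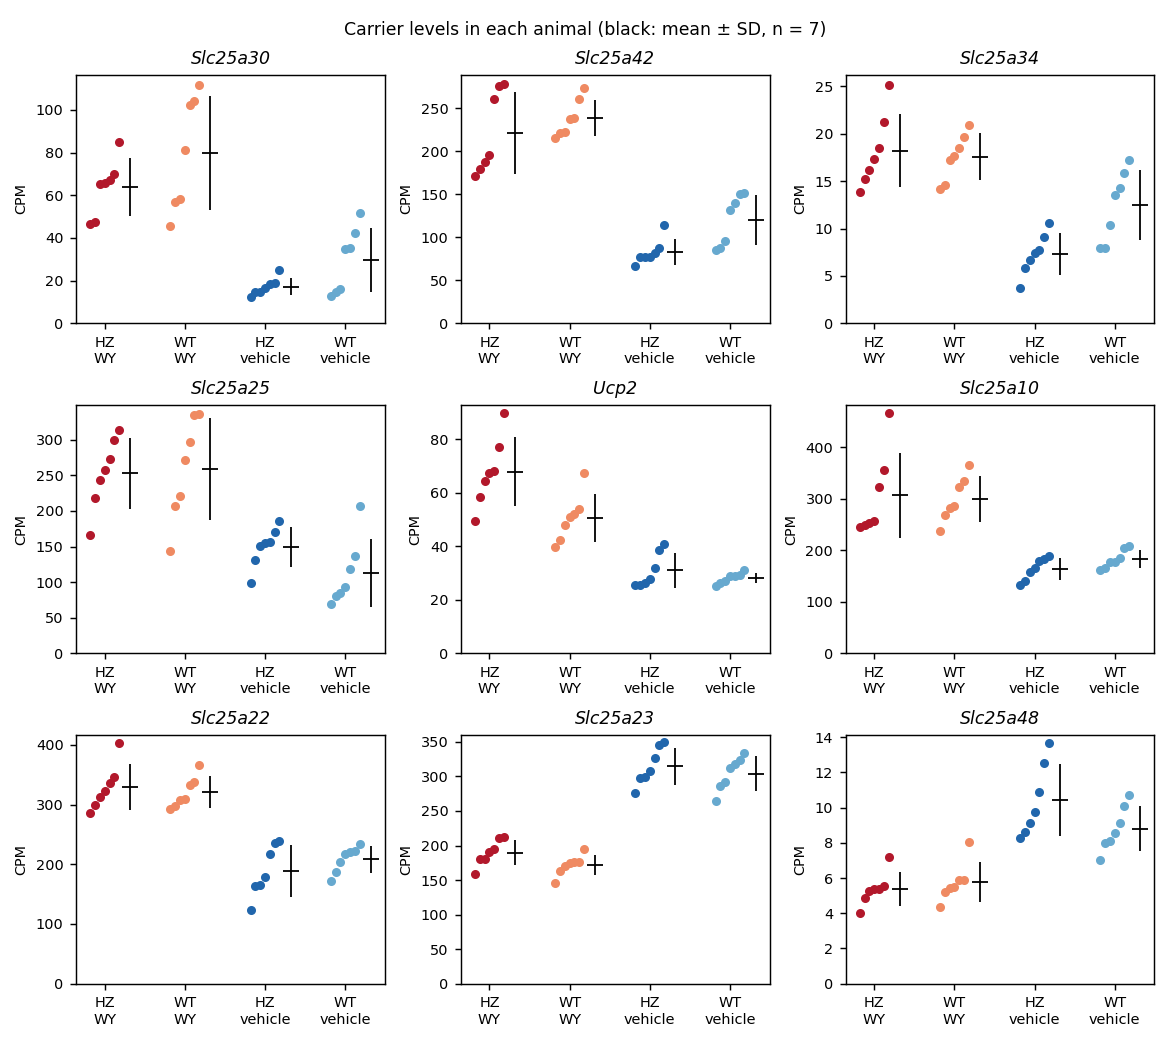
CPM of 9 carriers in each liver, sorted by level within each group, with the mean ± SD in black (n = 7). Slc25a42, Ucp2, Slc25a10 and Slc25a22 do not overlap between WY and vehicle in either genotype, and Slc25a23 is lower in all WY livers than in any vehicle liver.

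Carriers reach the inner membrane through the TOM pore of the outer membrane, small TIM chaperones and the TIM22 insertase. All 16 genes of this route that were listed were tested, and 15 rose in HZ and 13 in WT under WY, with 0 that fell. Of all genes, 29.3% were called higher in HZ and 27.4% in WT. The median log2 fold change of this list was 0.49 in HZ and 0.60 in WT. With the length trend removed, 13 rose in each genotype, with medians of 0.42 in HZ and 0.49 in WT. With the clock score as a covariate, 11 rose in HZ and 13 in WT. Tomm40, the pore itself, had 1.22 ± 0.08, adjusted p = 4.06e-12 in HZ, and 1.07 ± 0.08, adjusted p = 2.83e-11 in WT. Timm22, the insertase, had 0.84 ± 0.07, adjusted p = 1.26e-10 in HZ, and 0.78 ± 0.07, adjusted p = 4.99e-10 in WT. The chaperone gene Timm10 had 1.04 ± 0.09, adjusted p = 2.02e-10 in HZ, and 0.94 ± 0.09, adjusted p = 1.08e-09 in WT. Other mitochondrial transporters and channels did not share one direction, with 8 higher and 6 lower of 19 tested in each genotype. Abcb10, a transporter of the inner membrane needed for haem synthesis, had -0.65 ± 0.09, adjusted p = 3.09e-07 in HZ, and -0.53 ± 0.09, adjusted p = 9.03e-06 in WT. Vdac2, a channel of the outer membrane, had 0.54 ± 0.05, adjusted p = 3.7e-10 in HZ, and 0.48 ± 0.05, adjusted p = 3.4e-09 in WT. Mpc2, a subunit of the pyruvate carrier, had 0.58 ± 0.07, adjusted p = 6.66e-08 in HZ, and 0.67 ± 0.07, adjusted p = 8.07e-09 in WT.

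The vehicle groups compare the genotypes without the drug. Only Slc25a34 and Slc25a42 passed, both lower in HZ, 2 of 40 where 2.07% of all genes were called, 0.301% higher and 1.77% lower. No carrier was without overlap between the genotypes, which held for 0.270% of all genes. Without the 5 outlying HZ libraries, or with the vehicle groups alone, 0% of all genes were called. Slc25a34 had 3.70, 7.40 and 10.6 CPM in HZ vehicle livers, against 7.98, 13.6 and 17.2 CPM in WT vehicle livers. Slc25a42 had 66.7, 77.6 and 114 CPM in HZ vehicle livers, against 85.7, 132 and 151 CPM in WT vehicle livers. Both genes overlapped between the genotypes. The log2 fold change was -0.77 ± 0.19, adjusted p = 0.033 for Slc25a34, and -0.54 ± 0.14, adjusted p = 0.0442 for Slc25a42. Slc25a30 had the largest difference, -0.79 ± 0.28, adjusted p = 0.132, and did not pass. The next smallest p-values were those of Slc25a5 (-0.15 ± 0.05, adjusted p = 0.0974), Slc25a46 (-0.13 ± 0.05, adjusted p = 0.163) and Slc25a3 (-0.15 ± 0.06, adjusted p = 0.166). Slc25a47 had -0.33 ± 0.13, adjusted p = 0.181. Unadjusted p was below 0.05 for 8 of the 40 carriers, and for 2256 of all 12607 genes.

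Both calls lay near the threshold, at adjusted p = 0.033 and 0.0442, and were lost in several fits with fewer libraries. They were kept with DESeq2 (adjusted p = 0.0038 for Slc25a34 and 0.00941 for Slc25a42) and with voom (0.00886 and 0.00428). These methods called 3.97% and 5.56% of all genes. Both calls were also kept with DESeq2 size factors, over genes of at least 5 CPM and with the length trend removed. Without the 5 outlying HZ libraries, the values were -0.82, adjusted p = 0.151 for Slc25a34, and -0.49, adjusted p = 0.214 for Slc25a42. Slc25a34 also lost its call without any 1 of WT vehicle animals 74, 76, 78 or 29 or HZ vehicle animals 38, 39 or 35, at adjusted p between 0.0621 and 0.0964. Slc25a42 lost its call without any 1 of the same WT vehicle animals, of HZ vehicle animals 38, 39, 30, 34, 35 or 36, or of WT WY animals 11, 19, 20, 24, 25 or 6, at adjusted p between 0.0517 and 0.128. The direction was lower in HZ in every one of these fits. Where leaving out a single library lost the call, the log2 fold change was -0.77 to -0.67 for Slc25a34. For Slc25a42 it was -0.55 to -0.47. The WT WY animals are not part of this comparison.

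The WT vehicle livers were spread widely for these genes, and the animals are set out here in an order chosen after their values were seen. Slc25a30 had 35.2, 34.6, 42.3 and 51.7 CPM in WT vehicle animals 74, 76, 78 and 29, and 16.0, 14.8 and 12.9 CPM in animals 37, 31 and 32. Slc25a34 had 13.6, 15.8, 14.3 and 17.2 CPM in the first 4 of these animals, and 10.4, 7.99 and 7.98 CPM in the other 3. Slc25a42 had 140.3, 151, 149.9 and 132 CPM in the first 4, and 87.9, 85.7 and 95.9 CPM in the other 3. For all 3 genes the first 4 animals were above the other 3. The clock score separated the same animals, with -0.62, -0.79, 0.13 and -3.20 in animals 74, 76, 78 and 29, and 4.15, 3.51 and 1.44 in animals 37, 31 and 32. With that score as a covariate, HZ against WT under vehicle was -0.51, adjusted p = 0.272 for Slc25a30, -0.68, adjusted p = 0.0574 for Slc25a34, and -0.45, adjusted p = 0.0674 for Slc25a42. The mean log2 CPM of the 12 PPARα targets was 9.87, 9.82, 9.76 and 9.83 in animals 74, 76, 78 and 29, 8.78, 8.56 and 9.48 in animals 37, 31 and 32, and 7.47 to 9.28 in the 7 HZ vehicle livers. It was 10.5 to 11.0 in HZ WY livers and 10.7 to 10.9 in WT WY livers. Of the same 12 targets, 3 were called lower in HZ than in WT under vehicle, where 1.77% of all genes were. That count was 0 without the 5 outlying HZ libraries and with the vehicle groups alone, where 0% of all genes were called. It was 9 with DESeq2 and with voom, where 383 and 522 of all 12607 genes were called lower. The part of these targets and of the clock score in the carrier values was not tested. Animals 71 to 78 are WT animals 74, 76 and 78 and HZ animal 71. With a term for them, the values were -0.63, adjusted p = 0.107 for Slc25a34, and -0.37, adjusted p = 0.135 for Slc25a42.

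**Figure D4:**
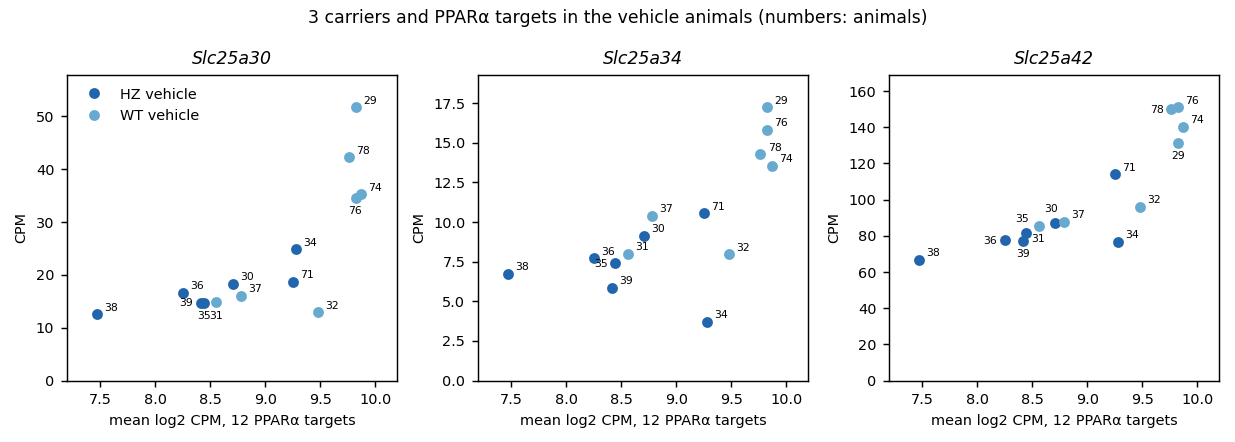
CPM of Slc25a30, Slc25a34 and Slc25a42 against the mean log2 CPM of 12 PPARα targets in the 14 vehicle livers, with HZ in dark and WT in light blue and each point labelled by its animal. WT animals 29, 74, 76 and 78 lie at the upper right of each panel, between 9.76 and 9.87 on the horizontal axis.

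Under WY the genotypes differed in no carrier at the threshold. Of the 40 tested, 0 were called by edgeR, where 3.16% of all genes were, 1.42% higher and 1.74% lower. Its unadjusted p was below 0.05 for 11 of the 40 carriers, and for 3033 of all 12607 genes. The share of all genes called was 0.378% without the 5 outlying HZ libraries, 8.74% with DESeq2 and 7.41% with voom. For 0 carriers the genotypes did not overlap, against 1.35% of all genes. DESeq2 called 5 of the 40, 1 higher and 4 lower, and limma with voom called 3, 1 higher and 2 lower. Ucp2 had the smallest p, with 49.7, 67.4 and 89.7 CPM in HZ WY livers, against 39.6, 51.2 and 67.3 CPM in WT WY livers. The groups overlapped, and the log2 fold change was 0.42 ± 0.12, adjusted p = 0.051. It passed with DESeq2 (adjusted p = 0.0259), with voom (0.0379), with DESeq2 size factors (0.0491), over genes of at least 5 CPM (0.0458) and with the clock score (0.0438), and did not pass without a filter on low counts (0.0746), with the length trend removed (0.0904) or with the WY groups alone (0.0636). Without the 5 outlying HZ libraries it had 0.32, adjusted p = 0.174. The summed level of the 12 Kupffer cell and macrophage markers, all detected in every group, was 350 to 943 CPM in HZ WY livers, 308 to 470 CPM in WT WY livers, 405 to 854 CPM in HZ vehicle livers and 406 to 554 CPM in WT vehicle livers. Among HZ WY livers it was highest in animals 14, 21 and 15, at 943, 847 and 640 CPM, where Ucp2 had 64.3, 89.7 and 68.0 CPM. In HZ WY animals 17, 18, 2 and 5 it was 350, 416, 489 and 428 CPM, where Ucp2 had 58.5, 49.7, 77.3 and 67.4 CPM. Under WY the log2 fold change of HZ over WT was positive for 12 of the 12 markers and for 6553 of all 12607 genes. Of the 12 markers, 0 were called. The part of these cells in the Ucp2 value was not tested.

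Next by p came Slc25a38, with 13.5 to 18.9 CPM in HZ WY livers, against 17.6 to 20.2 CPM in WT WY livers, and a log2 fold change of -0.29 ± 0.09, adjusted p = 0.0632. It passed with DESeq2 (adjusted p = 0.0248), voom (0.0273), DESeq2 size factors (0.0439) and the WY groups alone (0.04). Without the 5 outlying HZ libraries it had -0.33, adjusted p = 0.124, and with the clock score as a covariate -0.19, adjusted p = 0.194. Slc25a11 had 87.0 to 99.9 CPM in HZ WY livers, against 98.3 to 115 CPM in WT WY livers, and -0.17 ± 0.05, adjusted p = 0.0696. Slc25a46 and Slc25a5 followed, with -0.13 ± 0.05, adjusted p = 0.114, and -0.12 ± 0.05, adjusted p = 0.132. Slc25a34 and Slc25a42, lower in HZ under vehicle, had 0.05 ± 0.18 and -0.11 ± 0.14 under WY. Slc25a30 had -0.32 ± 0.26, adjusted p = 0.476, and -0.74, adjusted p = 0.0433 with the clock score as a covariate.

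**Figure D5:**
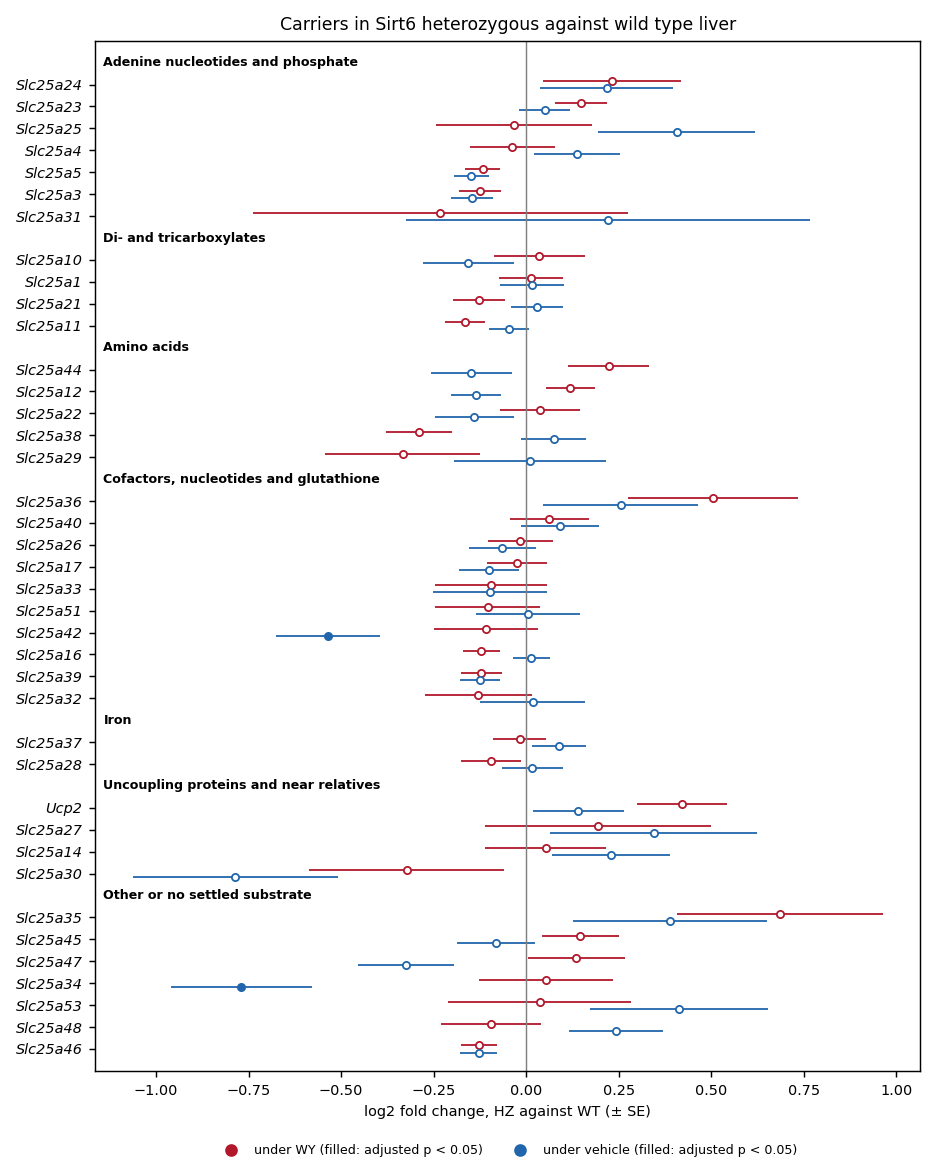
Log2 fold change of HZ over WT with its standard error for the tested carriers shown, under WY above and under vehicle below in each row, filled where adjusted p was below 0.05. Only Slc25a34 and Slc25a42 under vehicle are filled, at -0.77 and -0.54.

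The genes of carrier import were lower in HZ in part. Of the 16, 4 were called lower under WY (Timm8a1, Timm9, Timm13 and Tomm22) and 4 under vehicle (Timm8a1, Timm9, Timm10 and Tomm40). Of all genes, 1.74% were called lower under WY and 1.77% under vehicle. Timm9, a chaperone of carrier precursors, had -0.31 ± 0.09, adjusted p = 0.0484 under WY, and -0.51 ± 0.09, adjusted p = 0.00696 under vehicle. Without the 5 outlying HZ libraries, 0 of the 16 passed under either condition, with medians of -0.15 under WY and -0.12 under vehicle, against -0.21 and -0.16 with them. That fit called 0.378% of all genes under WY and 0% under vehicle. Over the alternative settings the number called lower ran from 0 to 9 under WY and from 0 to 5 under vehicle. The 9 came with DESeq2, voom and the clock score, which called 8.74%, 7.41% and 8.11% of all genes under WY. The 5 came with voom, which called 5.56% of all genes under vehicle.

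Whether the answer to WY differed between genotypes was tested as an interaction. No carrier was called, 0 of 40, and 0% of all 12607 genes were, with 0 carriers called by DESeq2 or voom. Unadjusted p was below 0.05 for 6 of the 40 carriers, and for 1182 of all genes. The 5 with the smallest p were Slc25a34, Slc25a38, Slc25a12, Slc25a47 and Slc25a44. On the log2 scale the HZ response exceeded the WT response by 0.82 ± 0.26 for Slc25a34 (adjusted p = 0.39), by 0.46 ± 0.18 for Slc25a47 (adjusted p = 0.456) and by 0.25 ± 0.10 for Slc25a12 (adjusted p = 0.429). For Slc25a38 and Slc25a44 the HZ response minus the WT response was -0.36 ± 0.13 (adjusted p = 0.408) and 0.37 ± 0.16 (adjusted p = 0.48). The comparisons of WY with vehicle and of HZ with WT share their libraries, so their values are not independent. The HZ vehicle livers enter both the genotype difference under vehicle and the HZ response to WY.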

How the data were processed

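Liver RNA of 28 mice was sequenced from libraries made with the NEBNext Ultra RNA kit, per the labels' protocols, which state no strand marking, so genes that overlap on opposite strands may share counts. The authors deposited 2 tables of raw read counts per gene, 1 for WY and 1 for vehicle animals. The submitters' processing notes name STAR 2.5.0a, HTSeq 0.6.1p1, DESeq2 1.18.1 and mm10. Counts were joined on the 23393 symbols in both tables, leaving out 5 summary rows and the 25 or 27 rows per table whose symbols had been turned into dates. Reads aligned to several places, 35.8% to 42.6% of a library, are in no gene's count, which can lower genes with near-identical copies. The 12607 genes passing filterByExpr were fitted with edgeR 4.0.16 (TMM, 4 group means, robust quasi-likelihood, 24 residual degrees of freedom, R 4.3.3), with Benjamini-Hochberg adjustment at 0.05. Errors of log2 fold changes are standard errors from the fit. Exon lengths are from GENCODE M21. Alternatives used DESeq2 1.42.0, limma 3.58.1 with voom, other filters, fewer libraries, and length, clock or animal-number terms. The clock score is the first principal component of 9 clock genes. The fit was tested on simulated data. A carrier that was tested and counted is not reported here by name. The carriers and lists were chosen with earlier results of these data known. Carriers were named where called with a log2 change of at least 0.5, or by smallest p. Others, among them Slc25a1 and Slc25a4, were named without meeting either condition.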

Additional observations from a re-analysis of the deposited data

Results flagged for a closer look

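Slc25a3 in HZ vehicle animal 38 had 243.65 CPM, and the nearest of the other 6 HZ vehicle livers had 303.7 CPM. Slc25a39 in the same animal had 304.6 CPM, and the nearest other HZ vehicle liver had 347.61 CPM. Each gap is large against the whole range of its group by Dixon's criterion at the 95% level, which chance meets in about 1 in 20 groups, and 76 groups of a carrier were looked at. Animal 38 is one of the 5 outlying HZ libraries.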

How the results depend on the processing

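The counts of carriers changed by WY moved little, and those between genotypes moved with most choices. Leaving out each library in turn gave 25 to 27 called carriers for WY in HZ, 22 to 25 for WY in WT, 0 to 2 between genotypes under WY, 0 to 2 between genotypes under vehicle and 0 in each fit of the interaction. Between genotypes under vehicle the count was 0 without a filter on low counts, without the 5 outlying HZ libraries, with the clock score, with the vehicle groups alone and with a term for animals 71 to 78. Between genotypes under WY it was 3 with DESeq2 size factors, 5 with DESeq2, 3 with voom, 1 over genes of at least 5 CPM, 2 with the clock score and 1 with the WY groups alone. No carrier named reversed its direction where it was called. No paired analysis was possible because the groups share no animal numbers. A carrier under 1 CPM has few reads per library, so small changes in it were not detectable at this depth. Counted once for each carrier and setting, calls were lost 33 times between genotypes under vehicle, 5 times for WY in HZ and 19 times for WY in WT.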
